A study of Homo sapiens with 2 samples.

Results

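The LIM homeobox genes encode transcription factors that carry a pair of LIM domains next to a DNA-binding homeodomain. The 10 genes described here were LHX1, LHX2, LHX3, LHX4, LHX5, LHX6, LHX8, LHX9, ISL1 and ISL2, out of 19974 protein-coding genes that the RefSeq gene table places on the autosomes and X. They were chosen because their proteins bind LDB1 in other tissues, and all 10 symbols were found in the table. LMX1A and LMX1B belong to the same family but were not among the 10, and they are given with the pathway genes. A peak was counted for a gene when its midpoint fell inside the gene or at most 10 kb from either end, and a second count used 50 kb.

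The peaks came from NB4 cells, a human acute promyelocytic leukaemia line that carries the PML::RARA fusion, profiled untreated by CUT&Tag, in which an antibody directs a Tn5 transposase to cut the DNA beside its target. There was 1 library with an LDB1 antibody and 1 with a non-specific IgG antibody, both from the same untreated line. The LDB1 peak list was the only file analysed here, so the background in the IgG library was not analysed here and no value below has a replicate check or a test. The list gave the position and width of each peak in hg38 and no height, so the depth was unknown. Of its 53742 peaks, 52765 lay on chromosomes 1 to 22 and X, and their widths had a median of 550 bp, with quartiles at 408 and 816 bp. As a look at the labelled cell type, all 8 genes of promyelocyte factors and primary granules that were counted (SPI1, CEBPA, CEBPE, MYB, MPO, ELANE, AZU1 and PRTN3) had a peak within 10 kb, as did 70.1% of all protein-coding genes. AZU1, PRTN3 and ELANE lie close together, so their windows overlap and can share peaks. Peak positions alone cannot establish a cell's identity.

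LDB1 is a nuclear adaptor protein without a DNA-binding domain of its own. It dimerises through its N-terminal part and grips LIM domains with its C-terminal part, so that LIM homeodomain proteins are drawn into larger complexes. In motor neurons ISL1, LHX3 and LDB1 form such a complex, while in blood cells LDB1 is best known with the LIM-only protein LMO2, TAL1 and GATA factors. LIM homeobox genes are known mainly for the patterning of the nervous system, pituitary, heart, kidney and gonad. In mice LHX2 also has a part in blood formation in the fetal liver.

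Annotated transcription starts were available for 8 of the 10 genes, through RefSeq promoter windows of GRCh38.p14 that take in 250 bases before and 50 bases after each start. LHX1 and LHX5 had no entry. A peak overlapped a promoter window of 3 of these 8 genes, LHX4, LHX9 and ISL1, and 28.0% of the 15813 protein-coding genes with an entry had such an overlap. The 250 bases before the start of these genes are shown 5′ to 3′ on the strand of the gene, with the bases under an LDB1 peak in capitals, and that of ISL2, the gene with no peak within 50 kb, is set beside them.
LHX4 (chr1:180230014-180230263, plus strand): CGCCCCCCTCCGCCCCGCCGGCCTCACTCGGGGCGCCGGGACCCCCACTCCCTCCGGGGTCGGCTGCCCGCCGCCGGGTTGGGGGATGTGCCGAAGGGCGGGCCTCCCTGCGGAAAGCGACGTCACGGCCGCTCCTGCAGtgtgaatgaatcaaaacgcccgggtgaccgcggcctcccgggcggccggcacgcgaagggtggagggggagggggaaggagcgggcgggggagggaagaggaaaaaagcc
LHX9 (chr1:197912214-197912463, plus strand): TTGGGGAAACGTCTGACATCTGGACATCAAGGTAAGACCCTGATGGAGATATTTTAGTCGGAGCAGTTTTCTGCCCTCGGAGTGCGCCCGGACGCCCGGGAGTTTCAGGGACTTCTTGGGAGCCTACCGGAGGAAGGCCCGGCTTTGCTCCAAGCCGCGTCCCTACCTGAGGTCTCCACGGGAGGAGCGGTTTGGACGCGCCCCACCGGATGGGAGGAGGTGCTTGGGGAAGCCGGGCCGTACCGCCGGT
ISL1 (chr5:51383198-51383447, plus strand): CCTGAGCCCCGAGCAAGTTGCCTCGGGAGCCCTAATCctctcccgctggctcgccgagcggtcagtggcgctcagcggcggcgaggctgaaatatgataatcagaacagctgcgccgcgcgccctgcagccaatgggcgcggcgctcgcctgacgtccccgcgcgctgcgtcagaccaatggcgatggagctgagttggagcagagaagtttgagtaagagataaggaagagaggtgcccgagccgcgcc
ISL2 (chr15:76336523-76336772, plus strand): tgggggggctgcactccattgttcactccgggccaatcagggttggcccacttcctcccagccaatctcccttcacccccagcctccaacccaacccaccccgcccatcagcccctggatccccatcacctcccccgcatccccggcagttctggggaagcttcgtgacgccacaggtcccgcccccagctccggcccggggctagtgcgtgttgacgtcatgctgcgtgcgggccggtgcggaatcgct

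The peak covered 140 of the 250 bases at LHX4, all 250 at the first start of LHX9 and 37 at ISL1. The second start of LHX9 had a peak over the last 29 of its 250 bases. GC content of these 4 shown sequences was 75.2% at LHX4, 62.8% at LHX9, 65.2% at ISL1 and 68.0% at ISL2, so the uncovered ISL2 sequence lay within the range of the others. Over the whole 300-base windows the 14 starts of the 8 genes had a median GC content of 66.7% (range 40.7 to 82.0%), and the windows of all protein-coding genes had a median of 62.3%.

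Motifs of factors that work with LDB1 were searched on both strands of the 14 windows. TAATTA, the core letters bound by LIM homeodomains, was in 0 of 14 windows, and it was in 3.39% of the 22156 windows of protein-coding genes. AGATAA, which GATA factors bind, was in 2 of 14 windows and in 7.88% of all windows. It began 31 bases before the start of ISL1 and 165 bases before a start of LHX6. The E-box CAGCTG was in 2 of 14 windows, at ISL1 and LHX8, and in 18.0% of all windows. The E-box CAGATG was in 1 of 14, at LHX9, and in 12.2% of all windows. The LHX9 match, read as CATCTG and beginning 234 bases before the start, was the single match of the 5 that lay under a peak. No match overlapped another, and a match is a description of letters, not of a bound site.

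Of the 10 LIM homeobox genes, 9 had an LDB1 peak within 10 kb, against 70.1% of all protein-coding genes (68.7% of those whose length lies between the shortest and the longest of the 10). The 9 genes held 39 distinct peaks, none of them counted for more than 1 of the genes. LHX4 had 12, LHX5 had 7 and LHX9 had 6, which made 25 of the 39. At least as many peaks were found at 2.92%, 9.54% and 12.7% of all protein-coding genes. The other genes with a peak had 1 to 4. The median was 3 peaks per gene, while all protein-coding genes had a median of 1. Within 50 kb the same 9 genes had 61 peaks, and the background at that distance was 86.1%. The share at 50 kb was thus close to the background. In the gene body alone 7 of 10 had a peak, against 54.5% of all genes, and 5 of 10 had a peak midpoint within 1 kb of a gene end, against 37.6%.

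**Figure D1:**
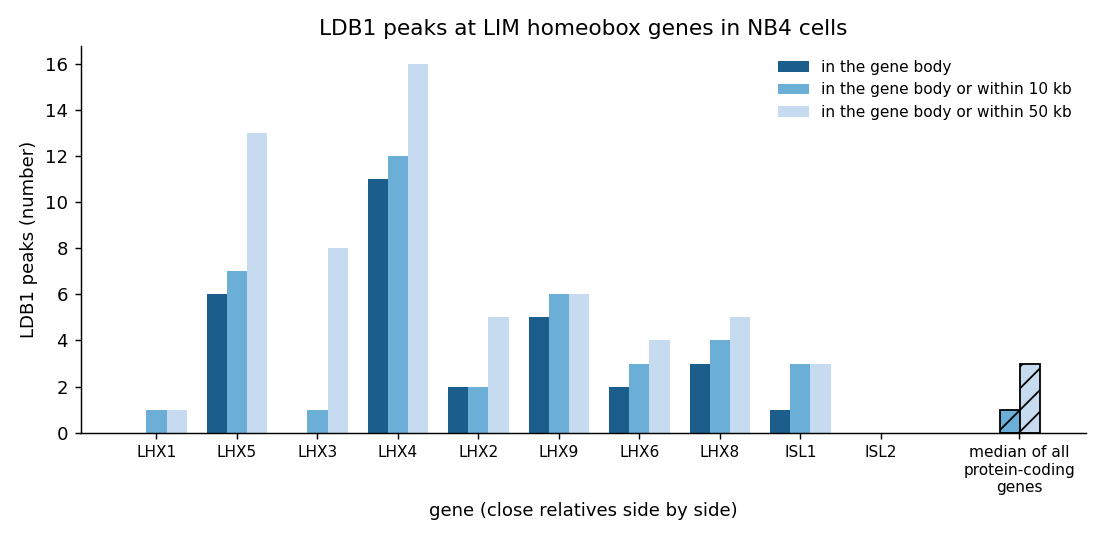
Number of LDB1 peaks in the body of each gene and in windows that add 10 or 50 kb to either side, for each LIM homeobox gene with close relatives side by side, and at the right the median of all protein-coding genes. LHX4, LHX5 and LHX9 stand highest at 10 kb with 12, 7 and 6 peaks, and ISL2 has none at any of these distances.

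LHX3 and LHX4 are close relatives that act in pituitary development, and they stood far apart in this list. LHX4 had 11 peaks in its 50.6 kb body and 1 more 8.76 kb from the gene. Of genes whose length lies in the range of the 10, 0.96% had 11 or more body peaks. Those genes had a median length of 21.9 kb, so most were shorter than LHX4. No share was taken over genes matched to its length. The body peaks of LHX4 were 375 to 2230 bp wide. The widest, chr1:180259040-180261269, lay 29.9 kb after the annotated start, and 1.89% of all peaks were as wide. A peak of 612 bp had its midpoint 416.5 bp before the start and a peak of 878 bp had it 740.5 bp after it. The start itself thus lay between peaks 412 bp apart. The gene body begins at chr1:180228375, ahead of the annotated start at chr1:180230264, so the 612 bp peak counts among the 11 body peaks. A peak of 1262 bp near the far end, at chr1:180271104-180272365, also lay in the bodies of ACBD6 and the antisense gene LHX4-AS1. The gene body of LHX3, at 8.88 kb, held no peak. Its single peak within 10 kb was 793 bp wide and lay 5.77 kb past the end of the gene (chr9:136190086-136190878).

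LHX3 gained 7 further peaks between 10 and 50 kb, and 5 of these lay in QSOX2, the neighbouring gene of a sulfhydryl oxidase. The widest of them, 2523 bp at chr9:136237351-136239873, was the widest peak within 50 kb of any of the 10 genes. LHX4 gained 4, of which 3 lay in QSOX1. The counts at 50 kb therefore take in peaks inside other genes. Of the 22 peaks between 10 and 50 kb of the LIM homeobox genes, 14 lay in another protein-coding gene. Within 10 kb this held for 2 of 39, in ACBD6 and C1orf53. Of all 52765 peaks, 21441 lay outside other protein-coding genes, so a place inside such a gene was common in the whole list.

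LHX1 and LHX5 are another such pair, with roles in the head, kidney and forebrain of the mouse embryo. LHX5 carried 6 peaks in a body of only 9.84 kb, which is 6.10 peaks per 10 kb of gene body. As many body peaks were found in 4.9% of the protein-coding genes of 5.70 to 71.0 kb, the range of the 10 genes and mostly longer than LHX5, and those genes together had 0.504 peaks per 10 kb of body. Of the 16814 protein-coding genes of at least 5 kb, 6 (0.0357%) were as dense, and the others were ACHE, PROC, GRB7, TAGLN and CPXM1. The density of LHX5 was singled out, and these genes were named, after their values were seen and outside the rule for named genes. It depends on how the signal was split into peaks, as gaps of 666 and 603 bp separate some of the LHX5 body peaks. With peaks 1 kb or less apart joined, LHX5 had 5 peaks within 10 kb in place of 7, and the density comparison was not redone on joined peaks. The 6 peaks were narrow, between 342 and 550 bp, and their midpoints followed each other at steps of 1.02 to 2.10 kb, where the median step between neighbouring peaks on all chromosomes was 10.2 kb. The last of them, chr12:113471241-113471790, had its midpoint 355.5 bp inside the end with the higher coordinate. A further peak of 536 bp lay 8.21 kb beyond that end, in LHX5-AS1, and 5 peaks between 26.8 and 39.3 kb from the other end lay in SDSL. LHX1 had no peak in its 7.83 kb body. Its only peak within 50 kb was 843 bp wide, lay 1.70 kb outside the end with the lower coordinate (chr17:36934663-36935505) and fell in the long non-coding gene LHX1-DT.

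LHX2 and LHX9, relatives that act in the eye and forebrain and in the gonad, both had peaks after their start. LHX9 had 5 body peaks, a count that 7.44% of genes in the same range of lengths reached, and their midpoints all lay in the first 9.01 kb of a gene of 23015 bp. The widest, 1626 bp at chr1:197912037-197913662, spanned the first annotated start, and 4.87% of all peaks were as wide. The next, 428 bp wide, had its midpoint 184.5 bp after the second start. The other body peaks were 401 to 556 bp wide, and the steps between the 5 midpoints ran from 1.35 to 3.41 kb. A peak of 821 bp lay 9.68 kb before the gene, in C1orf53. LHX2 had a peak of 427 bp with its midpoint 811 bp after the start and a peak of 719 bp 3.54 kb after it (chr9:124014944-124015662), and none elsewhere within 10 kb. Its 3 further peaks within 50 kb, 368 to 718 bp wide, lay in no other protein-coding gene, and the pair past the end of LHX2 lay in the long non-coding gene LOC107987037.

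LHX6 and LHX8, needed for interneurons and for cholinergic neurons of the forebrain, had 3 and 4 peaks within 10 kb. The body peaks of LHX6 were wide, 1387 bp at chr9:122225463-122226849 and 1553 bp at chr9:122219060-122220612, and 7.43 and 5.57% of all peaks were as wide. Each had its midpoint more than 1 kb after an annotated start. A further peak of 437 bp had its midpoint 536 bp before the outermost annotated start. That midpoint was 12 bp outside the end of the gene body, so the peak overlapped this end. The only other peak within 50 kb lay in NDUFA8. LHX8 is the longest of the 10 genes at 71.0 kb, yet its 3 body peaks, 358 to 612 bp wide, had their midpoints in its first 8.13 kb. The widest, chr1:75134999-75135610, was 916.5 bp after the second start, and the first also lay in LHX8-AS1. The remaining peak, 519 bp wide, lay 2.95 kb before the gene.

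ISL1, which acts in motor neurons, the heart and the endocrine pancreas, had 3 peaks of 419, 634 and 531 bp. The first, chr5:51382816-51383234, had its midpoint 423 bp before the start, in the divergent gene ISL1-DT. The second was 6.75 kb after the start, inside the 11.3 kb gene, and the last was 4.62 kb past its end. No further peak lay within 100 kb. ISL2, its relative in motor neurons and retinal ganglion cells, had no peak within 50 kb and 1 within 100 kb, and the peak nearest to its start was 76.5 kb away.

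**Figure D2:**
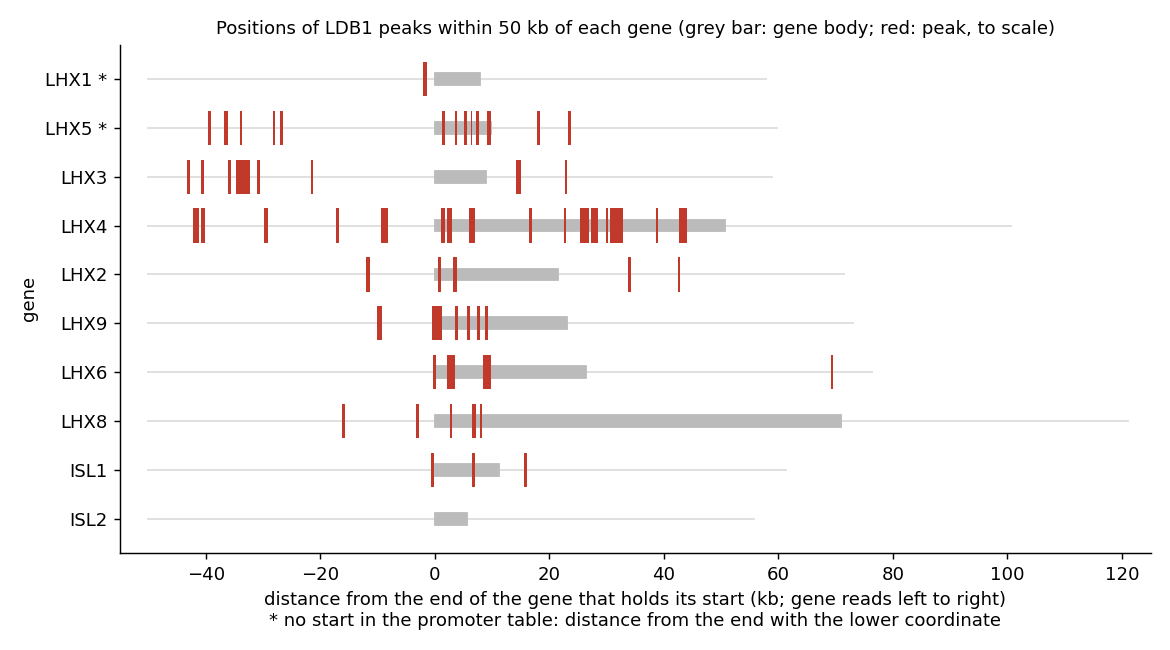
Each row is 1 gene, drawn to scale as a grey bar and oriented so that it reads left to right; red boxes are LDB1 peaks within 50 kb, and the horizontal axis is the distance in kb from the end that holds the start (for LHX1 and LHX5, from the end with the lower coordinate). The body peaks of LHX2 and LHX8 lie near the left end of the bar, and those of LHX6 and LHX9 lie on its left side and reach further along it. Those of LHX4 and LHX5 spread along the bar, and LHX1, LHX3 and ISL2 have none in it.

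Most of the genes with an annotated start had at least 1 peak close to it. A midpoint lay within 1 kb of an annotated start in 6 of the 8 genes with an entry, at LHX2, LHX4, LHX6, LHX8, LHX9 and ISL1, and this held for 35.6% of the protein-coding genes with one. The 8 genes had 1.75 starts each, against 1.4 in all genes, which gives a peak more places to count. Of the 31 peaks within 10 kb of these 8 genes, 8 lay that close to a start, and the nearest peak to a start was 11.2 kb away at LHX3. Along the gene body, 17 of 24 peaks (70.8%) lay in the 50% nearer to the gene end that holds the start. The share was 50.4% for the body peaks of protein-coding genes of 5.70 to 71.0 kb, the range of the 10 genes. LHX4 held 11 of the 24, with 5 in that part, and the remaining genes had 12 of 13. Those 12 were 5 at LHX9, 3 at LHX8 and 2 each at LHX2 and LHX6, while ISL1 had 0 of 1. Peaks of the same gene are not separate observations. This measure was added after the positions were seen. Exons and introns could not be told apart, since the gene table used gives none.

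The widths of the peaks at LIM homeobox genes were like those of the whole list. The 39 peaks within 10 kb had a median width of 550 bp (range 342 to 2230 bp), and all 52765 peaks also had a median of 550 bp. Of the 39, 8 (20.5%) were 1 kb or wider, against 16.5% of all peaks, and these lay at LHX4 (5 peaks), LHX6 (2) and LHX9 (1). LHX5 had 7 peaks and none above 550 bp, so the genes with many peaks did not have alike widths.

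**Figure D3:**
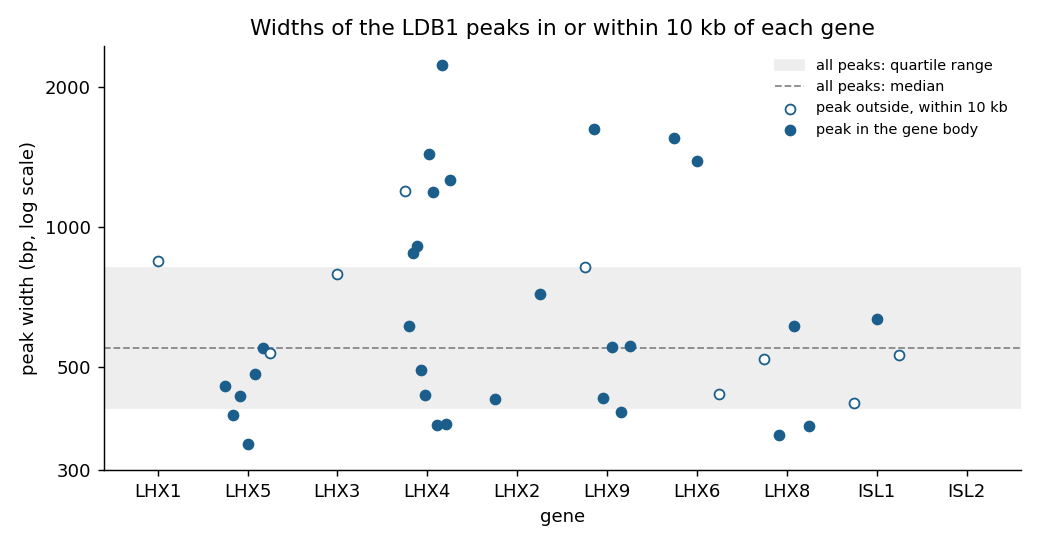
Width in bp, on a log scale, of every LDB1 peak in (filled) or within 10 kb of (open) each gene, over the quartile range (grey band, 408 to 816 bp) and median (dashed line, 550 bp) of all peaks. The peaks of LHX5 sit at or below the median line, while LHX4, LHX6 and LHX9 hold all of those of 1 kb or wider.

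The surroundings of the 10 genes differed widely in peak number. In the 1 Mb around the middle of the gene there were 106 peaks at LHX3, 88 at LHX5, 40 at LHX2, 36 at LHX4, 32 at LHX6, 15 at LHX9, 14 at LHX1, 9 at LHX8, 4 at ISL1 and 3 at ISL2, and all protein-coding genes had a median of 23. LHX3 thus had 1 peak within 10 kb in the densest surroundings of the 10, which 6.47% of all genes reached. LHX8, LHX9 and ISL1 had 4, 6 and 3 peaks within 10 kb in surroundings below the median, while LHX1 and ISL2, also below it, had 1 and 0. At ISL1, 3 of the 4 peaks of the whole 1 Mb lay within 10 kb of the gene. LHX5 combined a dense gene with dense surroundings, 5.39 times the mean of chromosome 12, and the part of the region in its count was not tested. ISL2 had no peak within 10 kb and 3 in its 1 Mb, and 96.1% of all genes had at least as many there, as 93.5% did for the 4 of ISL1.

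**Figure D4:**
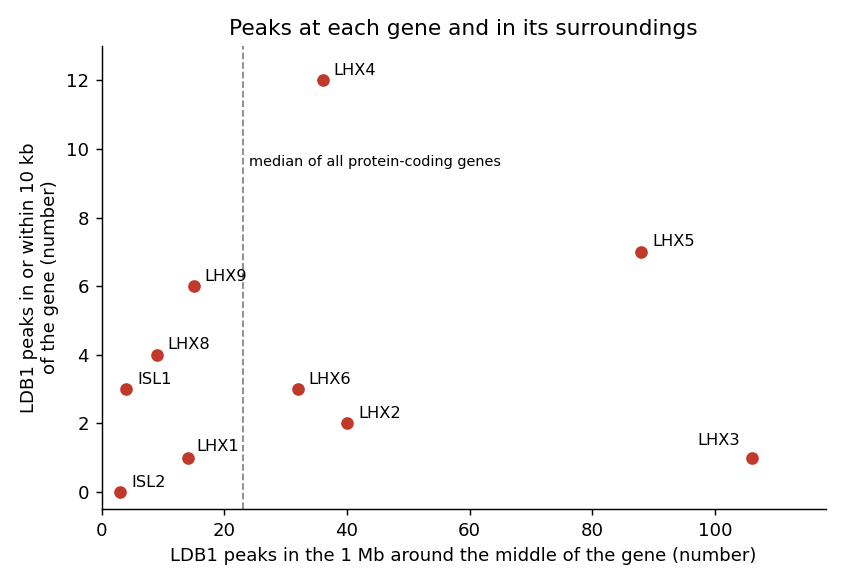
LDB1 peaks in or within 10 kb of each gene (vertical axis) against the peaks in the 1 Mb around its middle (horizontal axis), 1 point per gene; the dashed line is the median of all protein-coding genes, 23. LHX3 lies at the lower right with 1 and 106 peaks, and LHX5 at the right with 7 and 88. LHX9, LHX8 and ISL1 lie at the left with 6, 4 and 3 peaks near the gene, and LHX1 and ISL2 at the lower left with 1 and 0.

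Of the other homeobox families, HOX genes gave higher shares than the LIM homeobox genes. TALE genes gave lower shares within 10 kb and within 1 kb of a gene end. Their shares were higher in the gene body (77.8 against 70%) and within 50 kb (94.4 against 90%). Within 10 kb, 9 of 10 LIM homeobox genes had a peak, beside 37 of 39 HOX genes (94.9%) and 15 of 18 TALE genes (83.3%), and the medians were 3, 4 and 4 peaks per gene. Within 1 kb of a gene end the counts were 5 of 10, 27 of 39 and 7 of 18. HOX genes lie in clusters and share peaks, so their count is not one of separate sites. No test of these differences was made, and nothing here sets the LIM homeobox genes apart from the other homeobox families.

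**Figure D5:**
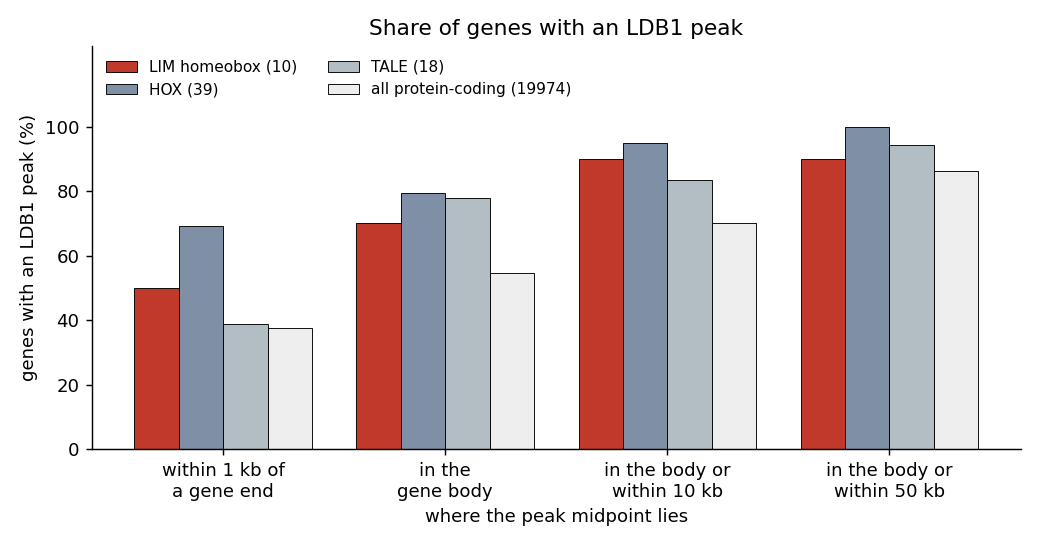
Percentage of genes with an LDB1 peak midpoint within 1 kb of a gene end, in the gene body, in the body or within 10 kb, and in the body or within 50 kb, for 10 LIM homeobox, 39 HOX, 18 TALE and all 19974 protein-coding genes. The LIM homeobox genes lie above all protein-coding genes in each group of bars, by least at 50 kb (90.0 against 86.1%), and below the HOX genes throughout.

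Among the remaining genes of the LIM pathway, both other LIM homeodomain genes had peaks. LMX1A, which acts in midbrain dopamine neurons, had 3 within 10 kb with the widest at 3286 bp, and LMX1B, which acts in limb and kidney, had 4 with the widest at 975 bp. Of the LIM-only genes, 3 of 4 had a peak, with 5 at LMO1 and at LMO2, 1 at LMO4 and none at LMO3. Of the cofactor genes, 4 of 6 had one. SSBP3, SSBP4 and SSBP2, whose proteins bind LDB1 and protect it from breakdown, had 20, 8 and 7, and LDB1 itself had 5. These counts are not adjusted for gene length, and SSBP3 and SSBP2 are much longer than LDB1. The cofactor genes had a median length of 109.9 kb, and LMX1A and LMX1B one of 121 kb, against 24.2 kb for all protein-coding genes. The order of the counts is thus not an order of peak density. LDB2, the close relative of LDB1, and RLIM, a ubiquitin ligase that acts on LDB1, had none within 10 kb. The partners and targets of LIM homeodomain proteins in other tissues had a peak within 10 kb at 16 of 24 genes (66.7%), near the 70.1% of all genes. Most peaks lay at DLX2, a forebrain homeobox gene, with 8, followed by 7 each at its neighbour DLX1, at SHH and at MAFA. DLX1 and DLX2 lie close together, so their windows share peaks.

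Some peaks lay close to the limits of 10 and 50 kb, so counts of single genes depend on these limits. The outermost peaks inside 10 kb lay 9.68 kb from LHX9 and 8.76 kb from LHX4, and the first beyond it lay 11.7 and 12.5 kb from LHX2. At 50 kb the outermost inside were 43.0 kb from LHX6 and 42.9 kb from LHX3, and the first beyond were 50.9 and 54.9 kb from LHX3.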

How the data were processed

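The submitters' processing notes name Bowtie2 2.4.1, which aligns reads, MACS2 2.0.10, which calls peaks, and hg38. Not given in the sources used here are the threshold, the handling of duplicates, and whether IgG was the control for calling. The deposited values used were the start, end and length in bp of each peak of the 1 LDB1 library, per the file headers, counted from 1 (length equalled end minus start plus 1 in all 53742 rows). Peaks were placed by midpoint with Python 3.11.15 and pandas 2.3.3 on the RefSeq gene table of GRCh38.p14, and the counting was tested on simulated peaks. Starts, strands and sequences are from RefSeq promoter windows of GRCh38.p14. Shares of all protein-coding genes stand beside the counts as background. Deeper sequencing or a looser threshold gives more and wider peaks, Tn5 prefers open chromatin, and a broad region can be listed as several peaks. With 1 library there was no test, interval over samples or replicate. The members and lists were chosen with earlier results of these data known. Named were all 10 genes, the pathway genes, the genes that hold a peak counted for one of them, and the 3 partners with most peaks with ties. Genes outside this rule are said to be so.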

Additional observations from a re-analysis of the deposited data

How the results depend on the processing

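The number of LIM homeobox genes with a peak within 10 kb was 9 of 10 with the widest 50% of the peaks (52.5% of all protein-coding genes), any overlap in place of the midpoint (70.4%), peaks 1 kb or less apart joined (70.0%) and 25 kb to either side (78.7%). It was also 9 with peaks inside other protein-coding genes left out, which gives no like share for all genes. It was 8 at 5 kb (65.0%) and 7 for the gene body (54.5%). With the widest 25% of the peaks it was 4 within 10 kb, where 34.9% of all protein-coding genes had such a peak, and 5 within 50 kb, where 52.5% had. The widest 50% left 20 of the 39 peaks within 10 kb and 29 of the 61 within 50 kb, and the widest 25% left 12 and 14, since fewer peaks enter by construction. LHX5 had 1 peak within 10 kb in the widest 50% and 0 in the widest 25%, and LHX4 had 7 in the widest 25%. With peaks 1 kb or less apart joined, LHX5 had 5 and LHX4 had 9. At 100 kb there were 92 peaks and all 10 genes had one, near the 92.5% of all protein-coding genes. Of the 140 counts of single genes under these alternatives, 103 stayed within 1.5 times and 37 moved further. The 103 include ISL2, which had 0 peaks and could not change where peaks were left out or the window was narrowed. No paired analysis was possible because there was 1 library per antibody. The unknown depth limits every absence, ISL2 included: no peak means none listed.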

Other observations

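Several neighbours of the LIM homeobox genes are themselves relatives of each other, so stretches around a gene and around its relative can be compared. These neighbours were chosen after the positions were seen, and nothing was tested. LHX3 lies beside QSOX2 and LHX4 near QSOX1, which encode sulfhydryl oxidases. QSOX2 had 5 peaks in its body and QSOX1 had 7, or 1.27 and 1.42 peaks per 10 kb. LHX3 had 0 peaks in its body of 8.88 kb, and LHX4 had 11 in 50.6 kb, or 2.17 per 10 kb. The part of gene length in these counts was not tested. LHX2 lies between DENND1A and NEK6, genes of an endocytic regulator and a mitotic kinase. LHX9 has the relatives DENND1B and NEK7 to its sides, with C1orf53, which holds 1 peak, as its nearest neighbour on the DENND1B side. DENND1A and NEK6 had 10 and 19 body peaks, and DENND1B and NEK7 had 1 and 4. Per 10 kb of body this was 0.182 and 1.99 beside LHX2 and 0.036 and 0.242 beside LHX9. At the LIM homeobox genes themselves the order was the other way round, with 2 body peaks in LHX2 and 5 in LHX9, or 0.929 and 2.17 per 10 kb.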
